A study of Mus musculus with 4 samples.

Results

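Gene expression in lung CD8+ T cells was compared between the IPF-LC and the LC mouse model while CD4+ cells were still present. The 2 libraries were chosen by their labels, out of 4 libraries in the series: 1 from IPF-LC mice and 1 from LC mice, both given an isotype antibody, which has the constant region of a treatment antibody without its target. The other 2 libraries, from IPF-LC and from LC mice given an antibody that depletes CD4+ cells, serve here to place the levels. The study's title concerns the antitumor effect of a CD4-depleting antibody in lung fibrosis, and this comparison shows how CD8+ T cells of the models differ without that depletion. All the mice were C57BL/6J, with no other allele named, and in every group the cells had been sorted from lung by CD3 and CD8. The labels do not spell out IPF-LC or LC, and they give neither the age of the mice, nor how many were pooled in a library, nor the time of collection. Polyadenylated RNA was amplified with a low-input SMART-Seq kit before library preparation. Every group had 1 library, so no value here has a replicate error. In what follows IPF-LC and LC alone mean the isotype libraries. A ratio between them can be set against counting error only, and no p-value is given for it.

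CD8+ T cells kill infected or malignant cells with perforin and granzymes, and they secrete interferon gamma and tumour necrosis factor. On antigen contact they also express inhibitory receptors such as PD-1, CTLA-4, LAG-3 and TIM-3, which stay high in cells under lasting stimulation, while naive and central memory cells keep the transcription factor TCF-1 and the homing receptor CCR7. Fibrotic lung holds macrophages that make osteopontin and matrix proteins, and tissue-resident T cells there can carry the integrin CD103.

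Library totals lay between 14946605 and 16217704 rounded expected counts, and 14660 to 16427 of 55401 genes had a count. Each level below is a CPM value, a count scaled by library total and TMM factor, and each ratio is the log2 of isotype IPF-LC over isotype LC. The defining markers of CD8+ T cells were present in both libraries. Cd8a, the alpha chain of the CD8 coreceptor, stood at 518 CPM in isotype IPF-LC, against 476 CPM in isotype LC. Cd8b1, the beta chain, stood at 972 CPM in IPF-LC and 693 CPM in LC, and Cd3e of the receptor complex at 716 CPM in IPF-LC and 513 CPM in LC. All 18 genes on the CD8 T cell identity list lay within 2-fold between the libraries. Cd4, the coreceptor of the cells that the other antibody removes, had 4.67 CPM in IPF-LC and 0.777 CPM in LC (73 counts in isotype IPF-LC and 12 counts in isotype LC), and it had 0 counts in CD4-depleted IPF-LC and 1.02 CPM in CD4-depleted LC. Transcripts of other lung cells were also present, and the sum over macrophage and monocyte markers was 3663 CPM in isotype IPF-LC and 4074 CPM in isotype LC, with 1309 CPM in CD4-depleted IPF-LC and 355 CPM in CD4-depleted LC. In RNA from many cells, fewer cells of a type and less RNA per cell cannot be told apart.

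More genes were lower than higher in the IPF-LC library. Over the 4 libraries 8433 genes averaged 10 CPM or more. Of these, 161 (1.91%) were higher and 347 (4.11%) lower by 2-fold or more in isotype IPF-LC than in isotype LC, around a median log2 ratio of 0.02. Between 10 and 25 CPM, 102 of 2161 genes were higher and 222 lower. From 100 CPM on, 9 of 2310 genes were higher and 14 lower, so that most of the differing genes were of low level. The 95% counting interval of a gene lay wholly beyond 2-fold for 58 higher and 237 lower genes. Among the 161 higher genes the isotype LC library held the lowest value of the 4 libraries in 124, and among the 347 lower genes it held the highest value in 252. The isotype IPF-LC library held the lowest value in 174 of the 347. The genes were picked by the values of these isotype libraries, which favours their holding the extremes. No share to compare with was computed, so these counts are a description only. The 4 libraries allow 1 kind of fit with an error across libraries, an additive edgeR quasi-likelihood fit of mouse model and antibody with 1 residual degree of freedom, which tests what both IPF-LC libraries share against both LC libraries. It called 0 of 13050 genes higher (0%) and 0 lower for IPF-LC at an adjusted p under 0.05, with 92 higher and 173 lower at an unadjusted p under 0.05. Together the latter counts are less than a fraction of 0.05 of the 13050 genes, the fraction expected if no gene differed. In the same design limma-voom called 0 and 0, and DESeq2 called 0 higher and 5 lower. These were Emilin2 (log2 -2.75, adjusted p = 1.03e-05), Mmp8 (log2 -5.94, adjusted p = 6.30e-05), C3 (log2 -3.49, adjusted p = 0.00930), Cass4 (log2 -6.50, adjusted p = 0.0317) and Gda (log2 -3.15, adjusted p = 0.0455), and for Mmp8 and C3 a library of 0 counts makes the fitted ratio no bound.

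**Figure D1:**
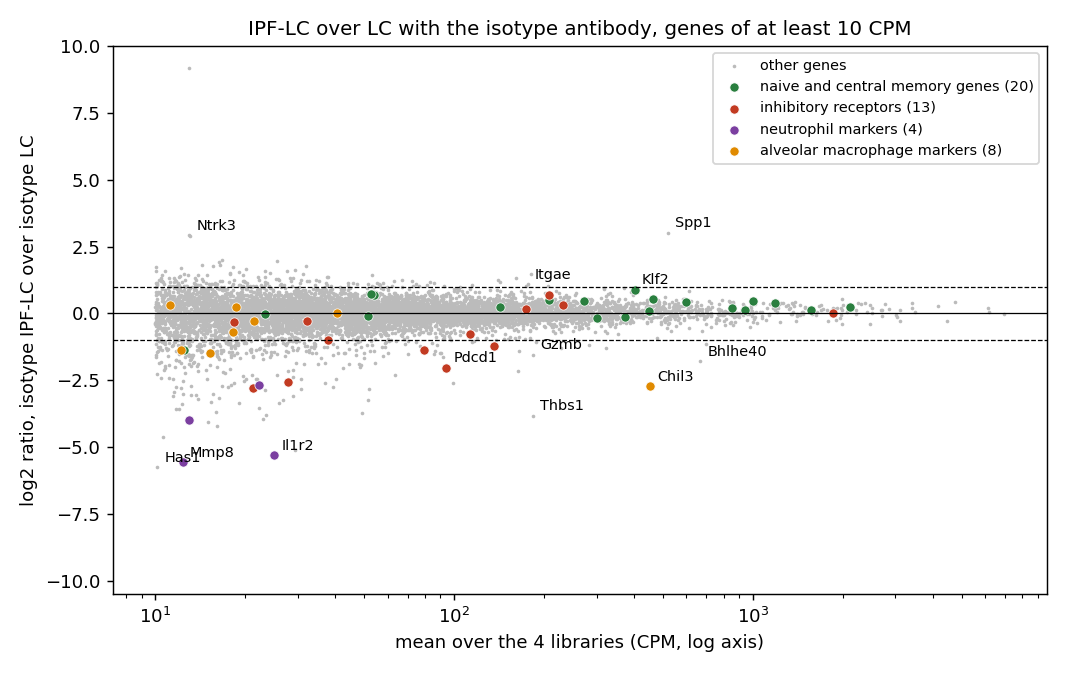
Log2 ratio of isotype IPF-LC over isotype LC (vertical) against the mean level over the 4 libraries in CPM (horizontal, log axis) for 8433 genes; each point is 1 gene, coloured points are members of 4 gene lists, and dashed lines mark 2-fold. Most naive and central memory genes lie above 0, while most inhibitory receptors lie below.

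Most inhibitory receptors stood lower in IPF-LC. Of 12231 genes that averaged 1 CPM or more, 651 (5.32%) were higher and 1428 (11.7%) lower by that much, with a median of -0.01. The counting interval lay above 0 for 4079 of the 12231 and below 0 for 4284, so an interval off 0 is common. List counts below are read beside these shares. Of the inhibitory receptors, 18 of 18 genes listed passed that minimum, with a median of -0.87. By 2-fold or more, 0 were higher and 8 lower. The 8 include Lilrb4a and Pdcd1lg2, and Pdcd1lg2 encodes a ligand of PD-1, not a receptor. Pdcd1, which encodes PD-1, had 33.2 CPM in isotype IPF-LC, against 136 CPM in isotype LC, 4.08-fold lower (log2 -2.03, 95% counting interval -2.17 to -1.89). The CD4-depleted libraries lay between, at 122 CPM in CD4-depleted IPF-LC and 85.6 CPM in CD4-depleted LC. Havcr2, which encodes TIM-3, had 11.5 CPM in IPF-LC and 68.1 CPM in LC (log2 -2.57, 95% counting interval -2.81 to -2.34). It was low in both depleted libraries as well, at 9.95 CPM in CD4-depleted IPF-LC and 21.5 CPM in CD4-depleted LC, so the LC library was the high one. Lag3 had 1.79 CPM in IPF-LC and 10.6 CPM in LC (log2 -2.55), on 28 counts in isotype IPF-LC and 164 counts in isotype LC. Ctla4 was 2.34-fold lower, at 39.3 CPM in IPF-LC and 92.2 CPM in LC. Isotype IPF-LC held the lowest of the 4 values for Pdcd1, Lag3, Ctla4 and Tigit. Tigit had 19.1 CPM in IPF-LC and 37.8 CPM in LC (log2 -0.98), just short of 2-fold. Entpd1, the ectonucleotidase CD39, had 6.78 CPM in IPF-LC and 47.6 CPM in LC (log2 -2.80), and Cd244a, the SLAM family receptor 2B4, 3.01 CPM in IPF-LC and 30.0 CPM in LC (log2 -3.30). Cd96, another receptor on the list and within 2-fold, went the other way, at 241 CPM in IPF-LC and 149 CPM in LC (log2 0.70, 95% counting interval 0.62 to 0.77).

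Cytotoxic genes differed unevenly. Gzmb, the apoptosis-inducing serine protease granzyme B, had 97.3 CPM in isotype IPF-LC, against 283 CPM in isotype LC, 2.91-fold lower (log2 -1.54, 95% counting interval -1.63 to -1.46). Both CD4-depleted libraries lay between, at 196 CPM in CD4-depleted IPF-LC and 160.2 CPM in CD4-depleted LC. Gzmk was 4.99-fold lower, at 5.69 CPM in IPF-LC and 28.5 CPM in LC, with 34.4 CPM in CD4-depleted IPF-LC and 15.4 CPM in CD4-depleted LC. Prf1, the pore-forming perforin, stayed within 2-fold at 98.3 CPM in IPF-LC and 171 CPM in LC (log2 -0.80), and so did Gzma at 85.9 CPM in IPF-LC and 108 CPM in LC (log2 -0.32). Natural killer cell markers share the cytotoxic programme, and 6 of the 14 listed are on other lists too, Prf1, Gzma and Eomes among them. Of the 14, 11 passed, with 1 higher and 3 lower by 2-fold or more, a median of -0.80 and 7 counting intervals below 0. The list is thus no finding separate from those T cell genes. Its members, Prf1, Gzma and Eomes included, summed to 576 CPM in isotype IPF-LC and 796 CPM in isotype LC. The part of natural killer cells in the cytotoxic and lectin-like receptor values was not tested. Serpinb9, the granzyme B inhibitor that protects the killer cell itself, had 123 CPM in IPF-LC and 242 CPM in LC (log2 -0.97). All 13 listed cytotoxic genes passed, with 0 higher and 2 lower by 2-fold or more, and the median was -0.32. Length-scaled abundance (the deposited TPM) put Gzma at 197 TPM in isotype IPF-LC and 259 TPM in isotype LC, and Gzmb at 113 TPM in isotype IPF-LC and 347 TPM in isotype LC. Among effector cytokines and death ligands, 9 of 13 genes listed passed, with 0 higher and 2 lower by 2-fold or more. Tnf had 9.21 CPM in IPF-LC and 20.6 CPM in LC (log2 -1.16, 95% counting interval -1.46 to -0.88). Ifng, at 27.6 CPM in IPF-LC and 34.5 CPM in LC, and Fasl, at 60.3 CPM in IPF-LC and 99.99 CPM in LC, were within 2-fold, with log2 ratios of -0.32 and -0.73.

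Regulatory T cell markers, several of which activated T cells also express, were mostly lower. Of the regulatory T cell markers, 13 of 14 genes listed passed, with a median of -1.38 and with 1 higher and 8 lower by 2-fold or more. Tnfrsf9, the costimulatory receptor 4-1BB, had 14.2 CPM in isotype IPF-LC, against 99.9 CPM in isotype LC, 7.02-fold lower (log2 -2.81, 95% counting interval -3.02 to -2.61). It had 51.3 CPM in CD4-depleted IPF-LC and 41.7 CPM in CD4-depleted LC. Tnfrsf4, the receptor OX40, had 2.24 CPM in IPF-LC and 26.3 CPM in LC (log2 -3.54), below its 28.1 CPM in CD4-depleted IPF-LC and 32.5 CPM in CD4-depleted LC. Il2ra, the high-affinity interleukin 2 receptor chain, had 5.50 CPM in IPF-LC and 30.4 CPM in LC (log2 -2.46, 95% counting interval -2.81 to -2.13). Foxp3, which defines regulatory T cells, was low in both, at 1.47 CPM in IPF-LC and 3.88 CPM in LC and on 23 counts in isotype IPF-LC and 60 counts in isotype LC (log2 -1.38, 95% counting interval -2.16 to -0.68), and it was higher in both other libraries, at 29.3 CPM in CD4-depleted IPF-LC and 32.5 CPM in CD4-depleted LC. Lrrc32, the regulatory T cell anchor of latent TGF-beta, had 1.09 CPM in IPF-LC and 10.5 CPM in LC (log2 -3.23). Ebi3, an interleukin 35 subunit, had 0 counts in isotype IPF-LC and 3.30 CPM in isotype LC, at least 17.2-fold lower over a floor of 3 counts per library. The costimulatory receptors, a list that shares Tnfrsf9 and Tnfrsf4, stood near 0 as a whole: all 16 passed, with 1 higher and 2 lower by 2-fold or more, a median of 0.04, 7 counting intervals above 0 and 6 below. Gpr83 alone on the regulatory T cell list was at least 2-fold higher, at 8.06 CPM in IPF-LC and 2.65 CPM in LC (log2 1.59). Il12rb2, the signalling chain of the interleukin 12 receptor, had 11.1 CPM in IPF-LC and 61.0 CPM in LC (log2 -2.46), with 62.6 CPM in CD4-depleted IPF-LC and 26.8 CPM in CD4-depleted LC.

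Since Gzmb, Havcr2 and Tnfrsf9 were all lower in isotype IPF-LC and their promoter windows share the binding motif of AP-1, a factor pair that T cell activation induces, those windows are shown. They are RefSeq sequences of build GRCm38.p6, 250 bases before to 50 bases after the annotated start, read 5′ to 3′ on the gene's strand, and the capitals mark the motif TGANTCA, which reads the same on both strands. Of the windows of Tnfrsf9, which number 2, the one with the motif is given.
Gzmb promoter, chr14:56262285-56262584, minus strand: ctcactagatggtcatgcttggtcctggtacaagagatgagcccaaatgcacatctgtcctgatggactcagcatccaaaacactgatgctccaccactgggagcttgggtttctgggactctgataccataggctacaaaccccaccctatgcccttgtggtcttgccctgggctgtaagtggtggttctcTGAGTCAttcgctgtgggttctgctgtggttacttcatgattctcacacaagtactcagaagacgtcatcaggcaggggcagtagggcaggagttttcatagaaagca
Tnfrsf9 promoter, chr4:150927749-150928048, plus strand: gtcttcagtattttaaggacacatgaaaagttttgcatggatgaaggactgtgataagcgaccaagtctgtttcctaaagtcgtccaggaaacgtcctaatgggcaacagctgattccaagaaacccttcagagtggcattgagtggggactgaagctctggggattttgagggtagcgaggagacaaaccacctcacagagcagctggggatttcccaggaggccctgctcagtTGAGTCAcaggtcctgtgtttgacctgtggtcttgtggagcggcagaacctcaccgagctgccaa
Havcr2 promoter, chr11:46454681-46454980, plus strand: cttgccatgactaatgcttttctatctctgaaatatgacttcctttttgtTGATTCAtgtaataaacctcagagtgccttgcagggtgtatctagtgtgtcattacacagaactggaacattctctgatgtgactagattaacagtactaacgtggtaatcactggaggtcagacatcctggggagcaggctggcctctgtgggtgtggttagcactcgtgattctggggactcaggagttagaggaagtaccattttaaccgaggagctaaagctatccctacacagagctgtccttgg
The motif occurred in 7.81% of all 32851 promoter windows and, since a gene can have several windows, in at least 1 window of 8.97% of all genes with one (2425 of 27025). Of 51 genes on the T cell lists that were at least 2-fold lower in isotype IPF-LC, 39 had a window and 7 of these (17.9%) held the motif, the others being Cd244a, Prdm1, Tnfsf14 and Zeb2. Counted by gene in the same way, the E-box CACGTG occurred in 8.09% of all genes and in 4 of the 39, and the interferon-stimulated response element, searched on both strands, in 3.99% of all genes and in 0 of the 39. Over windows their shares were 7.15% and 3.44%. A match describes the letters of a window and says nothing of binding in these cells.

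Transcription factors of effector and exhausted cells were lower in IPF-LC too. On this list 16 of 16 genes listed passed, with a median of -0.78 and with 0 higher and 5 lower by 2-fold or more. Bhlhe40, a repressor that activated T cells need for cytokine production, had 236 CPM in isotype IPF-LC, against 816 CPM in isotype LC, 3.46-fold lower (log2 -1.79, 95% counting interval -1.84 to -1.74). It had 922 CPM in CD4-depleted IPF-LC and 688 CPM in CD4-depleted LC, so isotype IPF-LC stood apart from the other 3 libraries. Prdm1, which encodes BLIMP-1, had 11.8 CPM in IPF-LC and 29.8 CPM in LC (log2 -1.33), and Maf 5.05 CPM in IPF-LC and 11.3 CPM in LC (log2 -1.15). Zeb2, a factor of terminal effector cells and of macrophages, had 6.91 CPM in IPF-LC and 45.9 CPM in LC (log2 -2.73), and Irf8, a factor of activated T cells and of myeloid and dendritic cells, 40.9 CPM in IPF-LC and 146 CPM in LC (log2 -1.84). Tox, the exhaustion factor, stayed within 2-fold at 52.7 CPM in IPF-LC and 76.7 CPM in LC (log2 -0.54), as did Eomes at 36.5 CPM in IPF-LC and 67.0 CPM in LC (log2 -0.87). Stat3, a signal transducer of several interleukin receptors, had 399.9 CPM in IPF-LC and 876 CPM in LC (log2 -1.13, 95% counting interval -1.17 to -1.09), with 989 CPM in CD4-depleted IPF-LC and 531 CPM in CD4-depleted LC.

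Genes of naive and central memory cells differed little in size, with most members higher in IPF-LC. All 20 genes listed passed, with a median of 0.25; the counting interval lay above 0 for 15 and below 0 for 3, and 0 were higher and 1 lower by 2-fold or more. Klf2, which keeps T cells quiescent and recirculating, had 392 CPM in isotype IPF-LC, against 213 CPM in isotype LC (log2 0.88, 95% counting interval 0.82 to 0.94). The CD4-depleted libraries lay higher still, at 583 CPM in CD4-depleted IPF-LC and 419.7 CPM in CD4-depleted LC. Dapl1 had 73.6 CPM in IPF-LC and 45.0 CPM in LC (log2 0.71) and Bach2, a repressor of effector genes, 56.3 CPM in IPF-LC and 35.3 CPM in LC (log2 0.67). Klf3 had 651 CPM in IPF-LC and 451 CPM in LC (log2 0.53). Tcf7, which encodes TCF-1, had 689 CPM in IPF-LC and 514 CPM in LC (log2 0.43), and Ccr7, a lymph node homing receptor, 2406 CPM in IPF-LC and 2026 CPM in LC (log2 0.25). Il7r, the interleukin 7 receptor, was almost level at 988 CPM in IPF-LC and 915 CPM in LC (log2 0.11). Ly6c1 went the other way at 13.8 CPM in IPF-LC and 35.5 CPM in LC (log2 -1.36); it has a near-identical neighbour, so its estimate is uncertain, and it stood at 0.449 CPM in CD4-depleted IPF-LC and 0.191 CPM in CD4-depleted LC.

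Residency genes were mostly lower, with Itgae the exception past 2-fold. Itgae, which encodes CD103, the integrin that binds epithelial E-cadherin, was 2.13-fold higher, at 210.5 CPM in isotype IPF-LC, against 99.02 CPM in isotype LC (log2 1.09, 95% counting interval 1.00 to 1.18). It had 169 CPM in CD4-depleted IPF-LC and 226 CPM in CD4-depleted LC, so the isotype LC library was the low one. Itga1, the collagen-binding CD49a, was level at 23.2 CPM in IPF-LC and 25.6 CPM in LC (log2 -0.14, 95% counting interval -0.35 to 0.07), and Cd69 at 456 CPM in IPF-LC and 521 CPM in LC (log2 -0.19). Cxcr6, a receptor of lung-resident T cells, had 104 CPM in IPF-LC and 164 CPM in LC (log2 -0.66). Of the list, 18 of 19 genes listed passed, with 1 higher and 5 lower by 2-fold or more and a median of -0.77. The counting interval lay above 0 for 2 members and below 0 for 14, and the lower ones were Cdh1, Ccr8, Ahr, Prdm1 and Litaf. Ahr, the aryl hydrocarbon receptor, had 30.5 CPM in IPF-LC and 68.5 CPM in LC (log2 -1.17), and Ccr8, a skin and regulatory T cell homing receptor, 2.81 CPM in IPF-LC and 15.1 CPM in LC (log2 -2.41). Dpp4, the peptidase CD26 of the T cell surface, was 2.03-fold higher, at 298 CPM in IPF-LC and 147 CPM in LC (log2 1.02, 95% counting interval 0.95 to 1.09), above its 184 CPM in CD4-depleted IPF-LC and 199 CPM in CD4-depleted LC. Among killer cell lectin-like receptors and terminal effector genes 16 of 16 genes listed passed, with 2 higher and 6 lower by 2-fold or more. Klrg1, a marker of terminal effectors, had 4.73 CPM in IPF-LC and 11.002 CPM in LC (log2 -1.21), and Cx3cr1, the fractalkine receptor, 2.24 CPM in IPF-LC and 11.1 CPM in LC (log2 -2.30). Klrb1f had 3.71 CPM in IPF-LC and 0.518 CPM in LC (log2 2.77) and Klra8 3.20 CPM in IPF-LC and 0.453 CPM in LC (log2 2.74), on 58 counts in isotype IPF-LC and 8 counts in isotype LC and on 50 counts in isotype IPF-LC and 7 counts in isotype LC, and both have close paralogs.

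**Figure D2:**
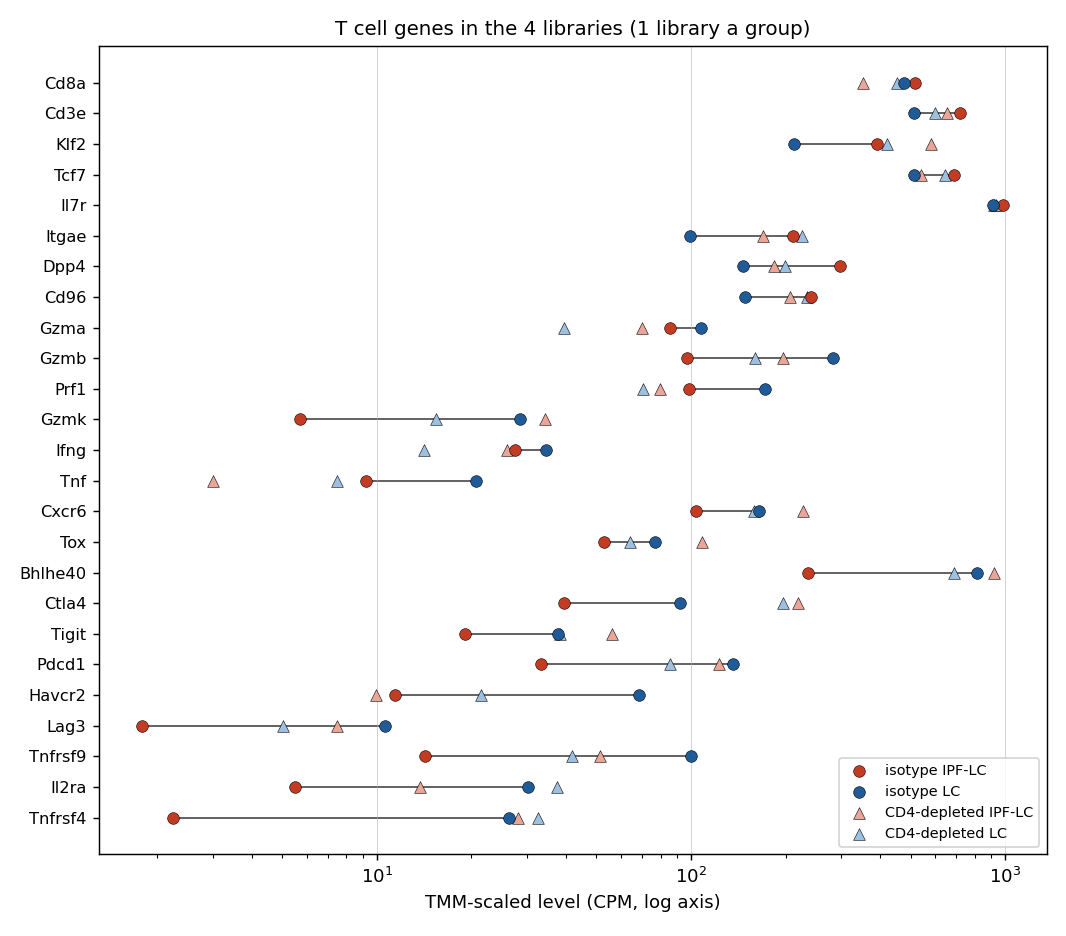
TMM-scaled levels in CPM (horizontal, log axis) of 25 T cell genes in the 4 libraries; circles are the isotype libraries, joined by a line, and triangles the CD4-depleted libraries, with 1 library a group and no error bars. The isotype IPF-LC circle lies right of the isotype LC circle from Cd8a to Cd96 and left of it from Gzma to Tnfrsf4.

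Across all T cell lists together, 195 different genes passed the minimum, of which 5 were at least 2-fold higher in isotype IPF-LC (Itgae, Klrb1f, Gpr83, Brca2 and Klra8) and 51 at least 2-fold lower. For 35 of these 51 genes both CD4-depleted libraries lay above isotype IPF-LC, and for 7 both lay below it. For 26 of the 51 both CD4-depleted libraries lay below isotype LC. The 51 were picked for a low isotype IPF-LC beside a high isotype LC value. That choice favours such positions, so these counts have no weight of their own. Among the 347 lower genes of at least 10 CPM, isotype IPF-LC held the lowest value in 174. Entpd1, Havcr2, Lilrb4a, Pdcd1lg2, Zeb2, Irf8 and Stat3 are expressed by myeloid cells too. The part of those cells in their lower values was not tested.

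Cell cycle genes were lower in IPF-LC in part. Of 30 mitosis genes, all of which passed, 0 were higher and 11 lower by 2-fold or more, with a median of -0.49. Mki67, which encodes the proliferation antigen Ki-67, had 18.7 CPM in isotype IPF-LC, against 33.7 CPM in isotype LC (log2 -0.85, 95% counting interval -1.06 to -0.64). Aurkb, a kinase of chromosome segregation, had 5.69 CPM in IPF-LC and 20.6 CPM in LC (log2 -1.85), Bub1 of the spindle checkpoint 3.65 CPM in IPF-LC and 14.9 CPM in LC (log2 -2.02), and Ccnb1, cyclin B1, 2.43 CPM in IPF-LC and 9.58 CPM in LC (log2 -1.96). Of 30 DNA replication and repair genes, all of which passed, 1 was higher and 5 lower by 2-fold or more, with a median of -0.34. Brca2, the higher one, reversed to log2 -0.0608 on the deposited TPM values. Brca1, of homologous recombination, had 2.11 CPM in IPF-LC and 21.8 CPM in LC (log2 -3.35, 95% counting interval -3.93 to -2.85). Pclaf, a PCNA-binding factor, had 18.6 CPM in IPF-LC and 44.0 CPM in LC (log2 -1.24), Tyms, thymidylate synthase, 7.42 CPM in IPF-LC and 20.7 CPM in LC (log2 -1.48), and Cdc45 of the replication fork 3.97 CPM in IPF-LC and 14.4 CPM in LC (log2 -1.85). The CD4-depleted pair went the same way, with a median of -1.08 for mitosis and -0.53 for replication genes, and Mki67 at 30.9 CPM in CD4-depleted IPF-LC and 92.9 CPM in CD4-depleted LC.

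Transcripts of other T cell subsets were scarce. Of the CD4 T helper markers 9 of 12 genes listed passed, with 2 higher and 0 lower by 2-fold or more, and the list summed to 194 CPM in isotype IPF-LC and 201 CPM in isotype LC. Cd4, given above, and Ccr4, a receptor of type 2 helper and skin-homing cells, were the higher ones, Ccr4 at 9.66 CPM in IPF-LC and 3.75 CPM in LC (log2 1.36). Il17a, the defining cytokine of type 17 cells, had 2.69 CPM in isotype IPF-LC and 0 counts in isotype LC, at least 13.8-fold higher over the floor. Il17f had 2.495 CPM in IPF-LC and 0.906 CPM in LC (log2 1.43, 95% counting interval 0.55 to 2.46), and Il23r, the interleukin 23 receptor, 4.09 CPM in IPF-LC and 0.712 CPM in LC (log2 2.47). Both CD4-depleted libraries held more Il17a than isotype IPF-LC, at 13.3 CPM in CD4-depleted IPF-LC and 9.38 CPM in CD4-depleted LC. Of 12 type 17 genes 11 passed, with 4 higher and 3 lower by 2-fold or more. Tnfrsf25, the receptor DR3, had 14.1 CPM in IPF-LC and 6.92 CPM in LC (log2 1.02). Gamma delta and innate-like T cell genes summed to 99.5 CPM in isotype IPF-LC and 91.6 CPM in isotype LC, with 9 of 15 passed and 0 higher and 2 lower by 2-fold or more.

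Spp1, which encodes osteopontin, a secreted matrix and cytokine-like protein of macrophages and other cells, stood far above the other higher genes of at least 100 CPM, at 1273 CPM in isotype IPF-LC, against 158 CPM in isotype LC, 8.06-fold higher (log2 3.01, 95% counting interval 2.95 to 3.07). In the CD4-depleted libraries it had 640.5 CPM in CD4-depleted IPF-LC and 4.40 CPM in CD4-depleted LC. Osm, oncostatin M of the interleukin 6 family, had 76.4 CPM in IPF-LC and 27.2 CPM in LC (log2 1.49, 95% counting interval 1.33 to 1.65), with 13.1 CPM in CD4-depleted IPF-LC and 7.78 CPM in CD4-depleted LC. The other genes highest by their counting bound were mostly of low level and of general cell functions. Ntrk3, the neurotrophin 3 receptor, had 28.7 CPM in IPF-LC and 3.82 CPM in LC (log2 2.90), Cdk5rap1, a tRNA-modifying enzyme of mitochondria, 35.5 CPM in IPF-LC and 8.93 CPM in LC (log2 1.99), and Pex6 of peroxisome assembly 39.6 CPM in IPF-LC and 10.3 CPM in LC (log2 1.94). Rfx3, Aven and Il1rl2 had log2 ratios of 1.94, 1.77 and 1.76 at 24.4, 37.9 and 30.1 CPM in isotype IPF-LC. Arf6, a small GTPase of membrane recycling, was better covered, at 146 CPM in IPF-LC and 52.7 CPM in LC (log2 1.47, 95% counting interval 1.35 to 1.59), but lower than its 314 CPM in CD4-depleted IPF-LC and 214 CPM in CD4-depleted LC. Ankrd13a, a ubiquitin-binding protein, likewise had 109 CPM in IPF-LC and 48.7 CPM in LC (log2 1.16), with 262 CPM in CD4-depleted IPF-LC and 150.0 CPM in CD4-depleted LC. Dusp2, a phosphatase of MAP kinases induced by activation, had 139 CPM in IPF-LC and 68.7 CPM in LC (log2 1.02), with 265 CPM in CD4-depleted IPF-LC and 221 CPM in CD4-depleted LC.

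Neutrophil markers and several genes of secreted proteins stood far lower in IPF-LC. The 16 neutrophil markers summed to 21.2 CPM in isotype IPF-LC and 320.0 CPM in isotype LC, and to 21.3 CPM in CD4-depleted IPF-LC and 12.6 CPM in CD4-depleted LC. In IPF-LC 9 of them had 0 counts, against 3 in LC. The 11 that passed the minimum did so mainly through the LC library, so no count or median over them is read. Il1r2, the interleukin 1 decoy receptor, had 1.98 CPM in isotype IPF-LC, against 79.3 CPM in isotype LC (log2 -5.30, 95% counting interval -5.88 to -4.81). Mmp8, the neutrophil collagenase, had 0.960 CPM in IPF-LC and 46.7 CPM in LC (log2 -5.56) on 15 counts in isotype IPF-LC and 721 counts in isotype LC, and Csf3r, the G-CSF receptor, 2.75 CPM in IPF-LC and 44.4 CPM in LC (log2 -4.00). S100a8 and S100a9, the calprotectin subunits, had log2 ratios of -3.34 and -3.30. Ngp had 0 counts in isotype IPF-LC and 11.5 CPM in isotype LC, at least 60.0-fold lower. Thbs1, thrombospondin 1, had 46.7 CPM in IPF-LC and 662 CPM in LC (log2 -3.82, 95% counting interval -3.94 to -3.72). F13a1, coagulation factor XIII, had 3.20 CPM in IPF-LC and 111 CPM in LC (log2 -5.10), and Hp, haptoglobin, 3.33 CPM in IPF-LC and 55.7 CPM in LC (log2 -4.05). Has1, a hyaluronan synthase, had 0.704 CPM in IPF-LC and 39.8 CPM in LC (log2 -5.76), and C3, the central complement component, 9.21 CPM in IPF-LC and 94.2 CPM in LC (log2 -3.35). Emilin2, a matrix glycoprotein, had 19.2 CPM in IPF-LC and 179 CPM in LC (log2 -3.22).

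Macrophage genes differed unevenly. All 24 macrophage and monocyte markers passed, and 1 was higher and 15 lower by 2-fold or more, with a median of -1.16, yet the sums were close, as given above. Lyz2, lysozyme of myeloid cells, had 2408 CPM in IPF-LC and 2089 CPM in LC (log2 0.20) and made up most of each sum, and Ctss, cathepsin S, 604 CPM in IPF-LC and 493 CPM in LC (log2 0.29). Csf1r, the receptor that macrophages need to survive, had 40.1 CPM in IPF-LC and 148 CPM in LC (log2 -1.88), and Clec4e, the receptor Mincle, 5.82 CPM in IPF-LC and 81.6 CPM in LC (log2 -3.80). Alveolar macrophage markers summed to 450.2 CPM in isotype IPF-LC and 1864 CPM in isotype LC, and of 15 listed 14 passed, with 0 higher and 9 lower by 2-fold or more. Their sums in the depleted libraries were 123 CPM in CD4-depleted IPF-LC and 18.9 CPM in CD4-depleted LC. Here too members passed the minimum largely through the LC library, so the count of lower members is not read. Chil3, a chitinase-like protein of alveolar macrophages, had 229 CPM in IPF-LC and 1508 CPM in LC (log2 -2.72, 95% counting interval -2.77 to -2.67). Marco, a scavenger receptor, had 0 counts in isotype IPF-LC and 24.9 CPM in isotype LC, at least 129.8-fold lower. Among fibrosis-linked macrophage products, the list that holds Spp1, 20 of 22 genes listed passed, with 2 higher and 4 lower by 2-fold or more. Of the chemokine ligands 18 of 31 genes listed passed, with 0 higher and 9 lower by 2-fold or more. Ccl2, the monocyte attractant, had 7.10 CPM in IPF-LC and 41.0 CPM in LC (log2 -2.53), Ccl7 3.97 CPM in IPF-LC and 15.9 CPM in LC, Ccl3 9.02 CPM in IPF-LC and 24.8 CPM in LC and Cx3cl1 2.18 CPM in IPF-LC and 13.8 CPM in LC. Of the complement genes 15 of 18 genes listed passed, with 0 higher and 10 lower by 2-fold or more. Isotype LC held the highest of the 4 values for 14 of the 18 chemokine ligands that passed, 12 of the 15 complement genes and 21 of the 24 macrophage markers. A minimum on the mean of the 4 libraries favours members high in that library, so the counts and medians of these lists are not read. C4b, which has a near-identical copy, had 0 counts in isotype IPF-LC and 31.6 CPM in isotype LC, and C5ar1, the receptor of the anaphylatoxin C5a, had 11.6 CPM in IPF-LC and 99.9 CPM in LC (log2 -3.11). Class II antigen presentation genes summed to 596 CPM in isotype IPF-LC and 1325 CPM in isotype LC, with Cd74 at 296 CPM in IPF-LC and 723 CPM in LC and H2-Ab1 at 77.2 CPM in IPF-LC and 238 CPM in LC. Fibroblast and matrix genes summed to 229 CPM in isotype IPF-LC and 663 CPM in isotype LC, with Dcn, decorin, at 10.9 CPM in IPF-LC and 37.2 CPM in LC. The part that such cells in the sorts have in any difference was not tested.

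**Figure D3:**
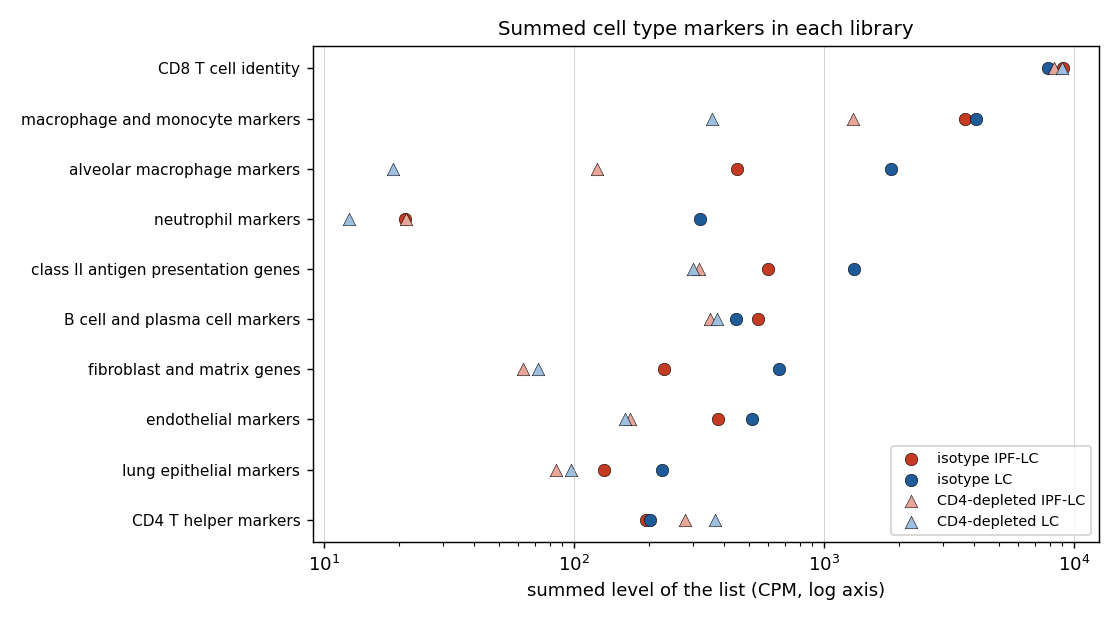
Summed levels in CPM (horizontal, log axis) of 10 cell type marker lists in each library, circles for the isotype libraries and triangles for the CD4-depleted libraries. CD8 T cell identity genes nearly coincide in the 4 libraries, while alveolar macrophage and neutrophil markers are higher in isotype LC than in isotype IPF-LC.

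Several oxidative stress genes were lower, while the stress-response lists stood near the shares of all genes. Hmox1, heme oxygenase 1, had 12.8 CPM in isotype IPF-LC, against 171 CPM in isotype LC, 13.3-fold lower (log2 -3.73, 95% counting interval -3.95 to -3.53). Srxn1, sulfiredoxin, had 3.07 CPM in IPF-LC and 37.1 CPM in LC (log2 -3.58). Slc7a11, the cystine transporter, had 1.22 CPM in IPF-LC and 27.8 CPM in LC (log2 -4.48), and Osgin1 3.65 CPM in IPF-LC and 32.7 CPM in LC (log2 -3.16). A set of 28 genes linked to the factor NRF2, drawn up after these values were seen and so with no weight of its own, had 25 measured members, with 0 higher and 5 lower by 2-fold or more and a median of -0.38. Slc16a3, a lactate exporter, had 8.70 CPM in IPF-LC and 64.0 CPM in LC (log2 -2.87), while Pdk1, which restrains pyruvate oxidation, had 243 CPM in IPF-LC and 156 CPM in LC (log2 0.64). The glycolysis, hypoxia and nutrient transport list had 0 higher and 1 lower by 2-fold or more of 25. Among 25 immediate early genes, 1 was higher and 4 lower by 2-fold or more. Atf3 had 68.1 CPM in IPF-LC and 195 CPM in LC (log2 -1.51), Egr3, induced by receptor signalling, 0.768 CPM in IPF-LC and 6.28 CPM in LC (log2 -2.98), and Fosl1, an AP-1 subunit, 0.896 CPM in IPF-LC and 7.18 CPM in LC (log2 -2.96). Of 19 heat shock and chaperone genes, 0 were higher and 2 lower by 2-fold or more, and the counting interval lay above 0 for 12 and below 0 for 3. Of the unfolded protein response genes 24 passed, with 0 higher and 3 lower by 2-fold or more, with Atf6 at 17.3 CPM in IPF-LC and 54.6 CPM in LC and Asns, asparagine synthetase, at 4.09 CPM in IPF-LC and 16.9 CPM in LC. Of the BCL2 family 15 passed, with 0 higher and 3 lower by 2-fold or more. The survival factor Bcl2l1 had 31.3 CPM in IPF-LC and 75.5 CPM in LC (log2 -1.27) and the death factor Pmaip1 64.1 CPM in IPF-LC and 130.1 CPM in LC (log2 -1.02).

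Genes of T cell receptor signalling, class I presentation and oxidative phosphorylation differed little, as most genes of high level did. These lists summed to 13747, 18144 and 4737 CPM in isotype IPF-LC. From 100 CPM on, 9 of 2310 genes were higher and 14 lower by 2-fold or more, so a count of 0 is no trait particular to these lists. Of 31 T cell receptor signalling genes, 0 were higher and 0 lower by 2-fold or more, with a median of 0.13 and a range of -0.51 to 0.62. Rasgrp1, the Ras activator downstream of the receptor, had 348 CPM in IPF-LC and 227 CPM in LC (log2 0.61), Fyn 372 CPM in IPF-LC and 257 CPM in LC (log2 0.53) and Dgka, a brake on diacylglycerol signalling, 749.9 CPM in IPF-LC and 523 CPM in LC (log2 0.52). Of 20 class I antigen presentation genes, 0 were higher and 0 lower by 2-fold or more, with B2m, the invariant light chain, at 3099.7 CPM in IPF-LC and 2442 CPM in LC (log2 0.34) and H2-K1 at 2731 CPM in IPF-LC and 2172 CPM in LC (log2 0.33). Of 26 oxidative phosphorylation subunits, 0 were higher and 0 lower by 2-fold or more. Type I interferon response genes had a median of -0.17 over 48 members, with 0 higher and 7 lower by 2-fold or more, among them Mx1 at 5.44 CPM in IPF-LC and 17.6 CPM in LC and Ifitm3 at 24.8 CPM in IPF-LC and 92.4 CPM in LC, a membrane protein with close paralogs. Interferon gamma targets had a median of -0.21 over 21 members, with 0 higher and 2 lower by 2-fold or more. JAK, STAT and SOCS genes had 1 higher and 1 lower by 2-fold or more of 19, with Socs4 at 50.3 CPM in IPF-LC and 24.0 CPM in LC the higher one and Stat3 the lower one, and chemokine receptors and homing genes 3 higher and 5 lower by 2-fold or more of 26. TGF-beta signalling genes and targets had 0 higher and 3 lower by 2-fold or more of 20, and NF-kappa B genes 0 higher and 1 lower by 2-fold or more of 18. Cytokine receptors had 1 higher and 7 lower by 2-fold or more of 27. Their share of lower members was above the 11.7% over all genes, like those of the chemokine receptors, the TGF-beta genes and the type I interferon response genes.

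**Figure D4:**
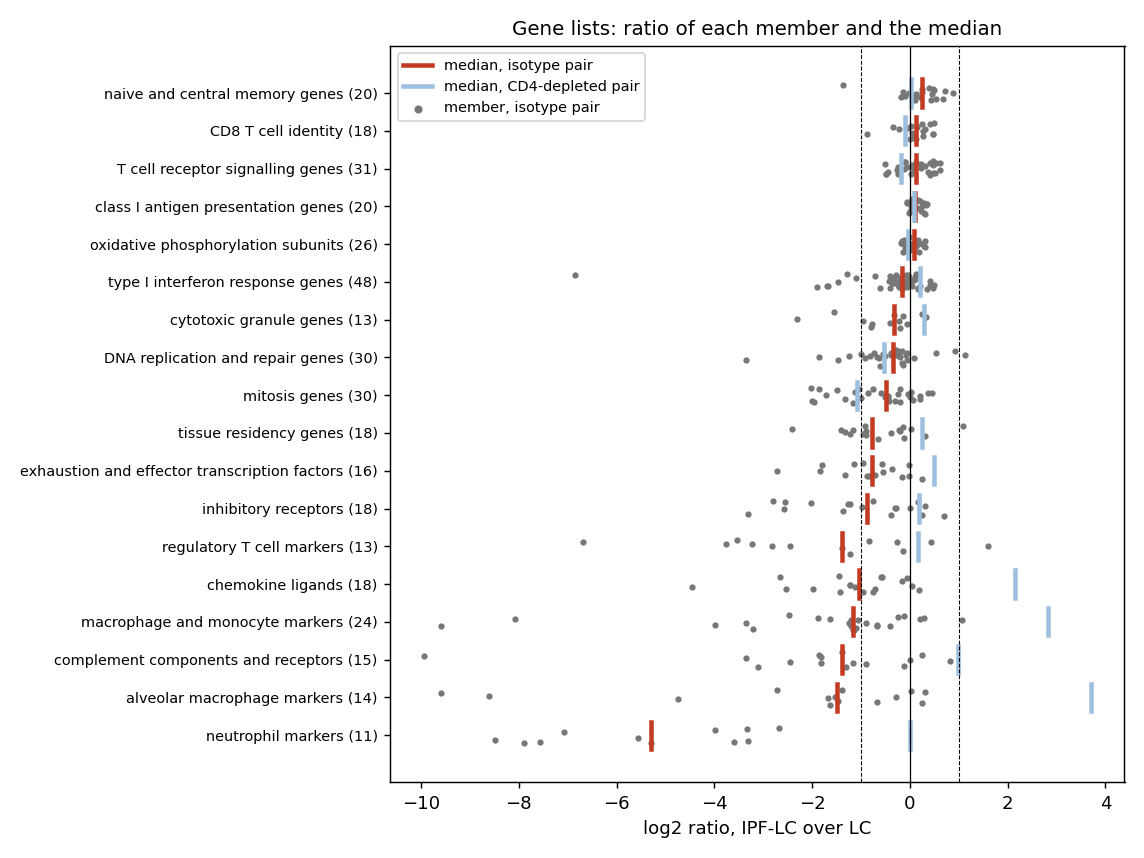
Log2 ratios of IPF-LC over LC (horizontal) for 18 gene lists, with the number of measured members in brackets; grey points are members in the isotype pair, red bars the median in the isotype pair and blue bars the median in the CD4-depleted pair, and dashed lines mark 2-fold. Points of genes with 0 counts in a library are fitted values and no bounds. Macrophage, alveolar macrophage and chemokine medians lie on opposite sides of 0 in the pairs. Alveolar macrophage and neutrophil members passed the minimum largely through isotype LC. Isotype LC also held the highest of the 4 values for most macrophage, chemokine and complement members, so the medians of all these lists are not read.

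Receptor reads on the beta chain variable segments were spread over many segments in both libraries. Single clones were not read, so the breadth of the repertoire within a segment is not known. Reads on Trbv segments numbered 3459 in isotype IPF-LC and 2691 in isotype LC, and 19 segments passed 1 CPM. Trbv12-2 took 11.97% in isotype IPF-LC (exact Clopper-Pearson 95% interval 10.9 to 13.1%) and 10.96% in isotype LC (9.81 to 12.2%). Trbv20 took 1.88% in isotype IPF-LC (1.45 to 2.39%) and 4.09% in isotype LC (3.37 to 4.91%). Trbv16 took 9.40% in isotype IPF-LC (8.44 to 10.4%) and 12.2% in isotype LC (11.01 to 13.5%). The intervals, which cover counting error only, did not overlap for 5 of the 19 segments. No segment exceeded the shares of Trbv12-2 in isotype IPF-LC or of Trbv16 in isotype LC.

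The differences between IPF-LC and LC with the isotype antibody mostly did not recur in the CD4-depleted pair, which shares no library with it. There, 278 of the 8433 genes (3.30%) were higher and 217 (2.57%) lower in IPF-LC by 2-fold or more. Of the 161 genes higher in isotype IPF-LC, 5 (3.11%) were also higher in the CD4-depleted pair, which is 1.80% of its 278, and 16 (9.94%) were lower there. Of the 347 lower genes, 33 (9.51%) were also lower there, which is 15.2% of its 217, and 91 (26.2%) were higher, which is 32.7% of its 278. Across the 8433 genes Pearson's r between the log2 ratios of the pairs was -0.155 and Spearman's rho -0.130, given as a description, since genes are not independent replicates. Spp1 was higher in both pairs, at log2 3.01 and 7.17, and Emilin2, Gda, Il2ra, Pclaf and Havcr2 were lower in both. Emilin2 had log2 ratios of -3.22 in the isotype pair and -2.08 in the depleted pair, and Gda, a guanine deaminase, -3.30 and -2.76. Il2ra had -2.46 and -1.45, and Pclaf -1.24 and -1.13. In contrast Pdcd1, Gzmb, Tnfrsf9, Bhlhe40 and Stat3, lower in the isotype pair, had log2 ratios of 0.52, 0.29, 0.30, 0.42 and 0.90 in the depleted pair, and Itgae, higher in the isotype pair, had -0.42. Whether the pairs differ was not tested, since each group has 1 library. Without the genes whose mean in the isotype libraries was at least 4 times that in the depleted ones, 159 higher and 234 lower genes were left of the 161 and 347.

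**Figure D5:**
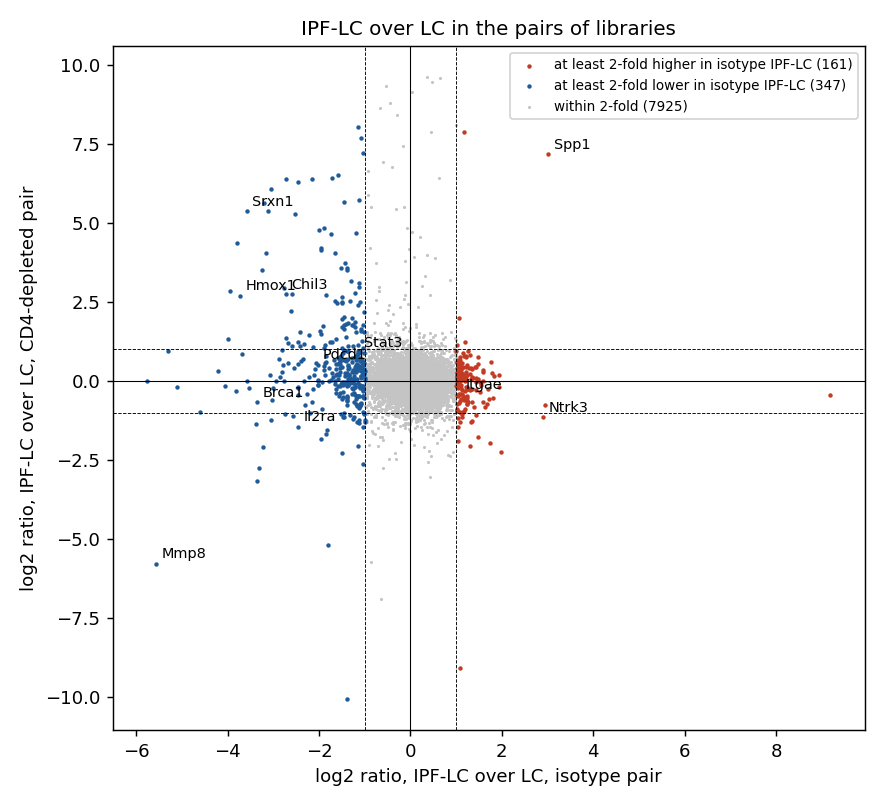
Log2 ratio of IPF-LC over LC in the CD4-depleted pair (vertical) against that in the isotype pair (horizontal) for 8433 genes of at least 10 CPM; each point is 1 gene, coloured by its call in the isotype pair, and dashed lines mark 2-fold. More of the 347 lower genes lie above the upper dashed line (91) than below the lower one (33).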

How the data were processed

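RNA-seq was available for 4 libraries of sorted mouse lung CD8+ T cells, 1 per group. Per the submitters' processing notes, RSEM 1.3.3, STAR 2.7.11a, MultiQC 1.25.2 and fastp 0.23.4 were used with build GRCm39; the annotation and the strand setting are not given in the sources used here. The authors deposited, per the file headers, expected counts, TPM, FPKM and lengths per gene, of which the FPKM values deposited were not used. Expected counts were rounded to whole numbers. Totals ran from 14946605 to 16217704.

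CPM used edgeR 4.0.16 TMM factors over the 4 libraries. Log2 ratios used a prior count of 0.5, and exact binomial 95% intervals cover counting error only, since amplified reads are not independent molecules. With 1 library a group no p-value was computed for the pair. The fits of all 4 libraries used edgeR's quasi-likelihood test, DESeq2 1.42.0 and limma 3.58.1 with Benjamini-Hochberg adjustment. The edgeR fit and the counting intervals were tested on simulated data, the fit at lower dispersion than these libraries showed. Genes needed a mean of 10 CPM for counts of genes and 1 CPM for lists; 3 counts served as the floor.

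The comparison and the 55 gene lists were chosen with earlier results of these data known. Named genes are the 20 highest and 20 lowest by counting bound, up to 5 per list, the 10 smallest p of the fit and a set of standard CD8+ T cell genes, some left out for length. Outside this rule, Cd96, Csf1r, Ctss, Gpr83, Lilrb4a, Lyz2, Osgin1, Pdcd1lg2 and Slc7a11 were named after their values were seen. So were the receptor segments and the genes of differing length. Some genes are not reported here.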

Additional observations from a re-analysis of the deposited data

Results flagged for a closer look

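Results listed here lay on opposite sides of 0 in the isotype and the CD4-depleted pair of libraries, as log2 ratios of IPF-LC over LC; each group has 1 library, so the difference between the pairs was not tested. The median of natural killer cell markers was -0.80 in the isotype pair and 0.70 in the depleted pair. Chemokine ligands had a median of -1.05 in the isotype pair and 2.15 in the depleted pair, and complement genes -1.38 in the isotype pair and 0.98 in the depleted pair. Macrophage and monocyte markers had -1.16 in the isotype pair and 2.84 in the depleted pair, and endothelial markers -0.65 in the isotype pair and 1.07 in the depleted pair. Alveolar macrophage markers had -1.49 in the isotype pair and 3.71 in the depleted pair. Alveolar macrophage members passed the minimum largely through isotype LC and summed to 18.9 CPM in CD4-depleted LC, so their medians are not read further. In CD4-depleted LC 20 of 31 listed chemokine ligands, 10 of 24 macrophage, 6 of 18 complement and 6 of 16 endothelial genes had 0 counts. Of the members that passed, isotype LC held the highest of the 4 values for 14 of 18, 21 of 24, 12 of 15 and 14 of 16. The medians of these lists are likewise not read further.

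Among T cell genes, Gzmk had -2.32 in the isotype pair and 1.15 in the depleted pair, Il12rb2 -2.46 in the isotype pair and 1.22 in the depleted pair, Zeb2 -2.73 in the isotype pair and 1.36 in the depleted pair, Klrg1 -1.21 in the isotype pair and 1.70 in the depleted pair, Ccr8 -2.41 in the isotype pair and 1.56 in the depleted pair and Cdh1 -1.22 in the isotype pair and 2.77 in the depleted pair. Ly6c1 had -1.36 in the isotype pair and 1.11 in the depleted pair with, in the depleted pair, a 95% counting interval -0.90 to 3.81 that spans 0. Ccr4 had 1.36 in the isotype pair and -1.27 in the depleted pair, Cdk5rap1 1.99 in the isotype pair and -2.26 in the depleted pair and Ntrk3 2.90 in the isotype pair and -1.15 in the depleted pair.

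Among myeloid and stress genes, Csf3r had -4.00 in the isotype pair and 1.34 in the depleted pair, Hmox1 -3.73 in the isotype pair and 2.7 in the depleted pair, Osgin1 -3.16 in the isotype pair and 4.06 in the depleted pair, Chil3 -2.72 in the isotype pair and 2.75 in the depleted pair, Ccl3 -1.46 in the isotype pair and 1.63 in the depleted pair and Fcgr2b -1.29 in the isotype pair and 2.00 in the depleted pair. Clec4e had -3.80 in the isotype pair and 4.37 in the depleted pair (95% counting interval 3.13 to 6.44), Srxn1 -3.58 in the isotype pair and 5.37 in the depleted pair (95% counting interval 3.79 to 8.75), C5ar1 -3.11 in the isotype pair and 5.39 in the depleted pair (95% counting interval 3.43 to 11.29) and Csf1r -1.88 in the isotype pair and 4.85 in the depleted pair (95% counting interval 3.25 to 8.23). Ccl2 had -2.53 in the isotype pair and 0 counts in CD4-depleted LC.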

How the results depend on the processing

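The number of genes at least 2-fold apart moved most with the minimum level. With a mean of at least 50 CPM, 27 genes were higher and 48 lower in isotype IPF-LC. At 1 CPM they were 651 and 1428, and with no minimum 2326 and 4095. Requiring the whole counting interval beyond 2-fold left 58 higher genes. In the fit of all 4 libraries, DESeq2 called 5 genes lower where edgeR called 0, and the cause was not tested. The median of dendritic cell markers turned to 0.17 among members of at least 10 CPM, which are fewer, against -0.67 at 1 CPM. Of 328 recomputed medians of 55 lists, 283 moved by less than 0.1, and 11 lists changed sign under some setting. Apart from the dendritic cell markers above, the text states no median for these lists. At 10 CPM, with fewer members, the median of alveolar macrophage markers was -0.48, of residency genes -0.38, of endothelial markers -0.38 and of type I interferon response genes -0.10. Other scalings, another prior count, TPM, the isotype mean as the minimum and leaving out markers of other cells kept both counts within 1.5 times. An alternative chosen after seeing the data, without genes at least 4 times higher in the isotype libraries, left 159 higher and 234 lower. Over 134 of the named genes, 607 recomputed ratios moved by less than the counting interval and 62 by more. Brca2 reversed to -0.0608 on TPM. The cause was not tested. No paired analysis was possible because each group has 1 library, and no library could be left out. Depth limits genes under about 1 CPM.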

Other observations

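The deposited transcript length of a gene, a mean over its transcripts weighted by their abundance, was compared as a readout of isoform use. Of 4253 genes that averaged 50 CPM or more, 20 differed by at least 1.5-fold in length between the isotype libraries and 22 between the CD4-depleted ones. The widest differences were in Gng2 and Fbxl20. Gng2, a G protein subunit, had 3826 bases in isotype IPF-LC and 1499 bases in isotype LC. Fbxl20, an F-box protein, had 3256 bases in isotype IPF-LC and 7752 bases in isotype LC. Tbl1xr1, a corepressor subunit, had 7967 bases in isotype IPF-LC and 4446 bases in isotype LC.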
